A study of Mus musculus with 24 samples.

Results

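Expression of 9 genes that mark the mesothelium was described in epididymal white fat, the visceral fat depot of the mouse that lies along the epididymis. The genes were Muc16, Msln, Upk3b, Upk1b, Wt1, Krt19, Krt8, Lrrn4 and Gpm6a. They were chosen as mesothelial genes, with earlier results of these data known. They make up 9 of the 19938 genes measured, and each had 1 probe set on the array. All 24 animals were male wild-type C57Bl/6 mice, 11 weeks old when the diets began, and all ate diets with 45% of energy from fat for 11 weeks. The 4 groups of 6 mice were lard-fed germ-free, lard-fed conventional, fish oil-fed germ-free and fish oil-fed conventional mice. The fish oil came from menhaden. Germ-free mice carry no microbes and conventional mice carry a normal microbiota, and all mice were fasted for 4 h before the tissue was taken. Each mouse gave 1 one-colour Affymetrix array from 250 ng of RNA. Values are log2 signals made with RMA, a method that corrects background and equalises the distributions of the arrays, so a difference of 1 is a change of signal by a factor of 2. Levels of different genes are not set against each other, because each probe set has its own brightness.

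The mesothelium is a single sheet of flat epithelial cells of mesodermal origin that covers the peritoneal organs, and it wraps visceral fat pads such as the epididymal one, whereas subcutaneous fat has none. Its cells carry mucin-like glycoproteins and uroplakins on the free surface and keratins inside, and they make a slippery fluid that lets organs slide. They retain Wt1, a transcription factor of the embryonic lining of the body cavity, and lineage tracing in mice has placed cells with Wt1 among the ancestors of visceral adipocytes. In whole tissue, fewer cells of a type and less RNA per cell cannot be told apart. With 6 arrays a group the precision is limited. Each p sets a difference of group means against a spread between mice that is shared by the 4 groups.

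One mouse stood apart for keratins and for genes of another tissue. Of 15 measured intestinal epithelium genes, 13 lay above the range of the other 5 mice of the group in lard-fed germ-free mouse 4, and 12 of 15 lay above all 23 other mice. The median gap of the 15 genes to the highest of those 5 mice was 3.15 log2 units. Krt20, an intestinal keratin, was 9.89 in mouse 4 and 5.73 to 6.61 in the other 5 lard-fed germ-free mice. Results for Krt19 and Krt8, which gut epithelium also expresses, are given with and without this mouse. Liver transcripts were also uneven: with lard the mean of 12 liver genes was 6.10 to 7.46 (germ-free) and 6.48 to 8.20 (conventional), and with fish oil it was 8.18 to 9.68 (germ-free) and 6.27 to 8.09 (conventional). Arrays of the same group correlated at 0.979 to 0.995 over all 35556 probe sets.

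**Figure D1:**
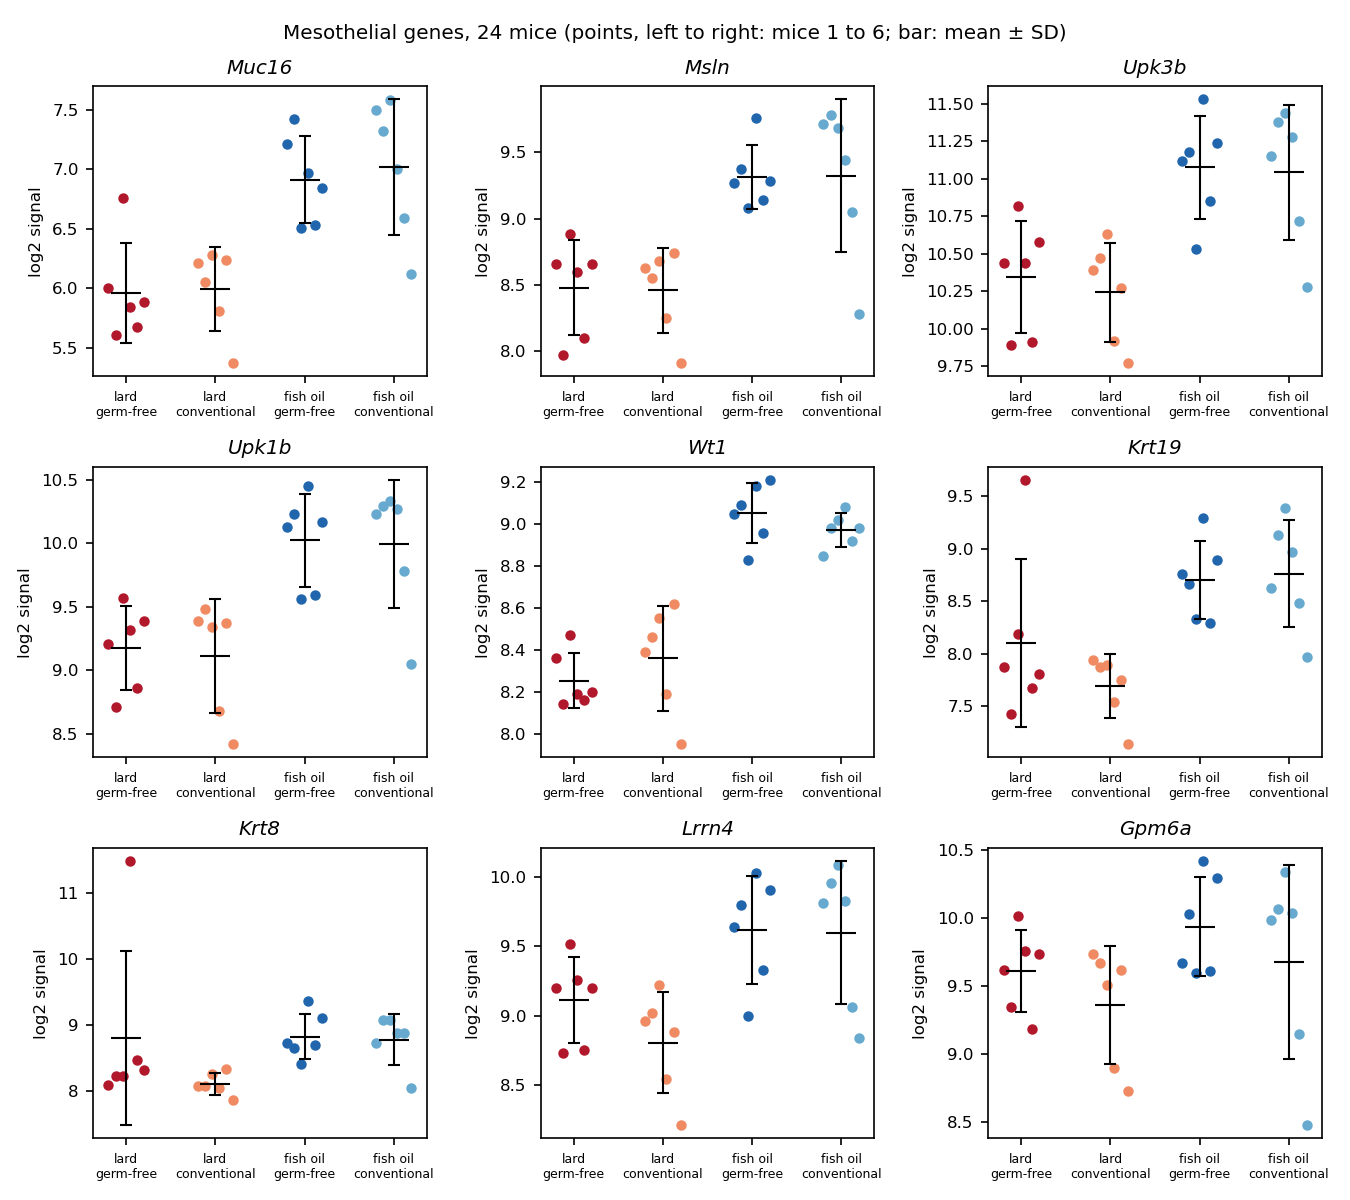
Log2 signal of the 9 mesothelial genes in each mouse, 1 panel per gene, with the groups in the order lard-fed germ-free, lard-fed conventional, fish oil-fed germ-free and fish oil-fed conventional. Each point is 1 of 6 mice, and each bar shows the group mean with its SD. Both lard groups sit below both fish oil groups by their means in 8 of the 9 genes, and the single high point for Krt8 is lard-fed germ-free mouse 4 at 11.48.

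Promoter sequence was available for 5 of the 9 genes in the RefSeq table (GRCm38.p6), as 6 windows. Each runs from 250 bases before to 50 after a listed start, which need not be the outer end of the gene. The windows of Upk3b and Lrrn4 are shown because these genes varied most closely together from mouse to mouse, and that of Krt8 because it departed from the others in 1 mouse. They lie at chr5:136038246-136038545 (plus strand, Upk3b), chr2:132880813-132881112 (minus strand, Lrrn4) and chr15:102004293-102004592 (minus strand, Krt8). The Lrrn4 window lies inside its gene, which spans chr2:132866686-132894010, so its start is an internal one. Capitals mark GGAATG, the core letters of the sites of TEAD factors, or its reverse complement in Upk3b and Lrrn4, and overlapping matches to the TATA box letters TATAAA on both strands in Krt8.
Upk3b: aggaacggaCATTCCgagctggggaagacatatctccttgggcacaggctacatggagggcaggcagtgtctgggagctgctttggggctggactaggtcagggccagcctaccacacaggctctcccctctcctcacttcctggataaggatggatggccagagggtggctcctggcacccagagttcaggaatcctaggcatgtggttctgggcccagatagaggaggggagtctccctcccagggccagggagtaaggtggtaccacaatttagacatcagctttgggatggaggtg
Lrrn4: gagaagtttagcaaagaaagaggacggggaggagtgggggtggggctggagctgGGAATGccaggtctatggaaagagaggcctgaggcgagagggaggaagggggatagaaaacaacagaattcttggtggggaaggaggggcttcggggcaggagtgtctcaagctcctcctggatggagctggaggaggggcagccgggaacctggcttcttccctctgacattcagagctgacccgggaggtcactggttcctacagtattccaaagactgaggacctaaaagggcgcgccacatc
Krt8: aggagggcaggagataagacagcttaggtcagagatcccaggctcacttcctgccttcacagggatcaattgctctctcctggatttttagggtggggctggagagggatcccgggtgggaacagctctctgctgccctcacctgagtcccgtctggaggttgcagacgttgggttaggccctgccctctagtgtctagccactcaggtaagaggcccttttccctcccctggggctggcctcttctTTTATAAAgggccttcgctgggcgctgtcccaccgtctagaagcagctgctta
GGAATG, searched on both strands, had its first base at position -241 from the start in Upk3b (minus strand). In Lrrn4 it was at -196 from the internal start (plus strand). It was also in 1 of the 2 windows of Gpm6a, at -125, and 14.7% of the 32851 promoter windows in the table held it. TATAAA was in the other Gpm6a window as well, which lies inside the gene, at -211 (minus strand), and 13.6% of windows held it. GCGGGGGCG, letters bound by the EGR and WT1 zinc fingers, was held by 2.9% of windows and by 0 of the members' 6. These matches describe letters only.

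The first question was how the fat in the diet related to the mesothelial genes, and the second whether germ-free mice differed. All 9 estimates were lower with lard than with fish oil in germ-free and in conventional mice, except that the sign for Krt8 in germ-free mice changed with the setting. The Krt8 estimate there was 0.36 with the liver mean as a covariate and 0.04 with median centring of each array, and it was positive, up to 0.12, without any 1 lard-fed germ-free mouse other than mouse 4 and without fish oil-fed germ-free mouse 4 or 6. In germ-free mice 5 of 9 genes fell with lard (limma, adjusted p under 0.05) and 0 rose. Of all genes, 27.1% fell, 20.4% rose and 47.5% changed in either direction there. With median centring 16.6% of all genes fell and 24.1% rose, and 5 of the 9 fell. In conventional mice 7 of 9 fell and 0 rose, where 15.6% of all genes fell, 15.4% rose and 31.0% changed. Because the list was chosen with earlier results known, these counts describe the genes and do not test the list. The median difference of the 9 genes was -0.73 log2 in germ-free and -0.80 in conventional mice, against -0.08 and -0.04 over all genes. Muc16, Msln, Upk3b, Upk1b and Wt1 passed in both. Krt19 and Lrrn4 passed in conventional mice, and Krt8 and Gpm6a in neither. Lard-fed germ-free mice 2, 4 and 5 had the highest intestinal means of their group, 6.78, 9.49 and 6.99 against 6.22 to 6.69. Mice 2 and 5 also had the lowest means over the 9 genes in that group, 8.23 and 8.31. Without mice 2, 4 and 5, 3 of 9 genes fell in germ-free mice (Wt1, Krt19 and Krt8), where 12.0% of all genes fell. With the mean of the liver genes as a covariate 5 and 7 of the 9 fell in germ-free and conventional mice. Among those 5, Msln had the most changed estimate, -1.38 ± 0.34 (SE, limma adjusted p = 0.00611) in germ-free mice. The liver mean in germ-free mice was at most 7.46 with lard and at least 8.18 with fish oil, so it went with the diet. The covariate fit in germ-free mice, that of Krt8 included, therefore cannot separate diet from liver transcripts and is not a check on the diet difference.

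Mesothelin and mucin 16 are surface glycoproteins that bind each other. Msln signal in germ-free mice was 7.97 at the lowest, 8.63 at the median and 8.88 at the highest with lard, and 9.08, 9.28 and 9.76 with fish oil. In conventional mice the lowest, median and highest Msln signals were 7.91, 8.59 and 8.74 with lard, and 8.28, 9.56 and 9.78 with fish oil. The 2 germ-free groups did not overlap, while the lowest conventional fish oil mouse fell inside the lard range. Msln fell by 0.84 ± 0.21 log2 with lard in germ-free mice (SE, limma adjusted p = 0.00221), a signal 1.79-fold lower, and by 0.86 ± 0.21 in conventional mice (adjusted p = 0.00243). The Muc16 probe set was annotated from a single cDNA. In germ-free mice it was 5.61, 5.86 and 6.76 with lard, and 6.51, 6.91 and 7.42 with fish oil. In conventional mice Muc16 was 5.37, 6.13 and 6.28 with lard, and 6.12, 7.16 and 7.58 with fish oil. The diet groups met at their edges through germ-free mouse 3 on lard, the highest of its group, and through the lowest fish oil mice. Muc16 fell by 0.95 ± 0.23 in germ-free mice (1.94-fold, adjusted p = 0.00161) and by 1.03 ± 0.23 in conventional mice (2.04-fold, adjusted p = 0.00116).

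Uroplakins are membrane proteins best known from the bladder lining, where they form plaques, and Upk3b and Upk1b are also made by mesothelial cells. In germ-free mice Upk3b was 9.89, 10.44 and 10.82 (lowest, median, highest) with lard, and 10.53, 11.15 and 11.53 with fish oil. In conventional mice Upk3b was 9.77, 10.33 and 10.63 with lard, and 10.28, 11.21 and 11.44 with fish oil. The tails overlapped in both kinds of mice, with every fish oil median above the highest lard mouse. Upk3b fell by 0.73 ± 0.20 with lard in germ-free mice (limma adjusted p = 0.00473) and by 0.80 ± 0.20 in conventional mice (adjusted p = 0.00313). Upk1b was 8.71, 9.27 and 9.57 with lard and 9.56, 10.15 and 10.45 with fish oil in germ-free mice. In conventional mice Upk1b was 8.42, 9.35 and 9.48 with lard and 9.05, 10.25 and 10.33 with fish oil. The germ-free groups just overlapped, and the conventional ones overlapped through 1 low fish oil mouse. Upk1b fell by 0.84 ± 0.22 (adjusted p = 0.00321) in germ-free and 0.88 ± 0.22 (adjusted p = 0.00323) in conventional mice. Of 4 genes of the bladder lining, Upk1a, Upk2, Upk3a and the basal keratin Krt5, 2 fell in germ-free mice and 0 in conventional mice. Of all genes, 27.1% and 15.6% fell there. Upk3a averaged 6.45 to 6.58 in all 4 groups.

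Wt1, the zinc-finger transcription factor, had the smallest standard error of the 9. It was 8.14, 8.19 and 8.47 with lard and 8.83, 9.07 and 9.21 with fish oil in germ-free mice. In conventional mice Wt1 was 7.95, 8.42 and 8.62 with lard and 8.85, 8.98 and 9.08 with fish oil. Every lard mouse lay below every fish oil mouse. Wt1 fell by 0.80 ± 0.09 with lard in germ-free mice (1.74-fold, limma adjusted p = 5.7e-07) and by 0.61 ± 0.09 in conventional mice (1.53-fold, adjusted p = 1.6e-05). Groups that did not overlap with lard lower were seen for 2 of 9 members in germ-free mice (Msln and Wt1; 11.1% of all genes) and for 2 of 9 in conventional mice (Wt1 and Krt19; 6.62% of all genes). Wt1 is also present in progenitors of visceral fat in mice. Of 6 measured progenitor markers 4 rose and 0 fell with lard in germ-free mice, where 20.4% of all genes rose. In conventional mice 1 rose and 0 fell, near the share of all genes that rose there, 15.4%. Pdgfra, a surface marker of adipose progenitors, differed by 0.62 (limma adjusted p = 0.00226) in germ-free and -0.10 (adjusted p = 0.669) in conventional mice.

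Lrrn4 and Gpm6a are membrane proteins first described in neurons that mesothelial cells also carry. In germ-free mice Lrrn4 was 8.73, 9.20 and 9.52 (lowest, median, highest) with lard and 9.00, 9.72 and 10.03 with fish oil. In conventional mice Lrrn4 was 8.21, 8.92 and 9.22 with lard and 8.84, 9.82 and 10.09 with fish oil. The ranges overlapped in both. Lrrn4 fell by 0.79 ± 0.21 in conventional mice (limma adjusted p = 0.00564), and its difference in germ-free mice was -0.51 ± 0.21 (95% interval -0.95 to -0.07, adjusted p = 0.0517). That adjusted p was under 0.05 when any 1 of 7 mice was left out (lard-fed germ-free 3, lard-fed conventional 6, fish oil-fed germ-free 3 or 5, fish oil-fed conventional 3, 5 or 6), with 0.0188 as the lowest, without fish oil-fed germ-free mouse 3. Gpm6a was 9.19, 9.68 and 10.02 with lard and 9.60, 9.85 and 10.42 with fish oil in germ-free mice. In conventional mice Gpm6a was 8.73, 9.56 and 9.74 with lard and 8.48, 10.01 and 10.34 with fish oil. The lowest of all 24 mice for Gpm6a was a fish oil mouse, conventional mouse 6. The Gpm6a difference was -0.33 (-0.85 to 0.19, limma adjusted p = 0.284) in germ-free and -0.31 (-0.84 to 0.21, adjusted p = 0.38) in conventional mice. A difference as large as that of Lrrn4 in germ-free mice lies inside both intervals. Without fish oil-fed conventional mouse 6 the Gpm6a difference in conventional mice was -0.56 (adjusted p = 0.0563).

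The keratins Krt19 and Krt8 build the intermediate filaments of simple epithelia, mesothelium included. In germ-free mice Krt19 was 7.43, 7.84 and 9.65 with lard and 8.29, 8.71 and 9.29 with fish oil. In conventional mice Krt19 was 7.14, 7.81 and 7.94 with lard and 7.97, 8.79 and 9.39 with fish oil. The conventional groups did not overlap, and in germ-free mice only mouse 4 on lard, at 9.65, lay within or above the fish oil range. Krt19 fell by 1.07 ± 0.28 in conventional mice (2.10-fold, limma adjusted p = 0.00451), and differed by -0.60 ± 0.28 (adjusted p = 0.0788) in germ-free mice. Without mouse 4 it fell by 0.91 ± 0.21 in germ-free mice (adjusted p = 0.00136). Krt8 was 8.09, 8.27 and 11.48 with lard and 8.41, 8.71 and 9.36 with fish oil in germ-free mice. In conventional mice Krt8 was 7.86, 8.08 and 8.33 with lard and 8.04, 8.88 and 9.07 with fish oil. Mouse 4, at 11.48, was the highest of all 24 for Krt8, and the next mouse of its group was at 8.47. The Krt8 difference was -0.03 (-0.79 to 0.74, adjusted p = 0.96) in germ-free and -0.67 (-1.44 to 0.10, adjusted p = 0.187) in conventional mice. Without mouse 4 Krt8 fell by 0.56 ± 0.16 in germ-free mice (adjusted p = 0.00681) and by 0.67 ± 0.15 in conventional mice (adjusted p = 0.0014), where the mouse enters the fit only through the shared spread. The counts then were 7 of 9 in germ-free mice (23.6% of all genes fell) and 8 of 9 in conventional mice (15.2%).

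**Figure D2:**
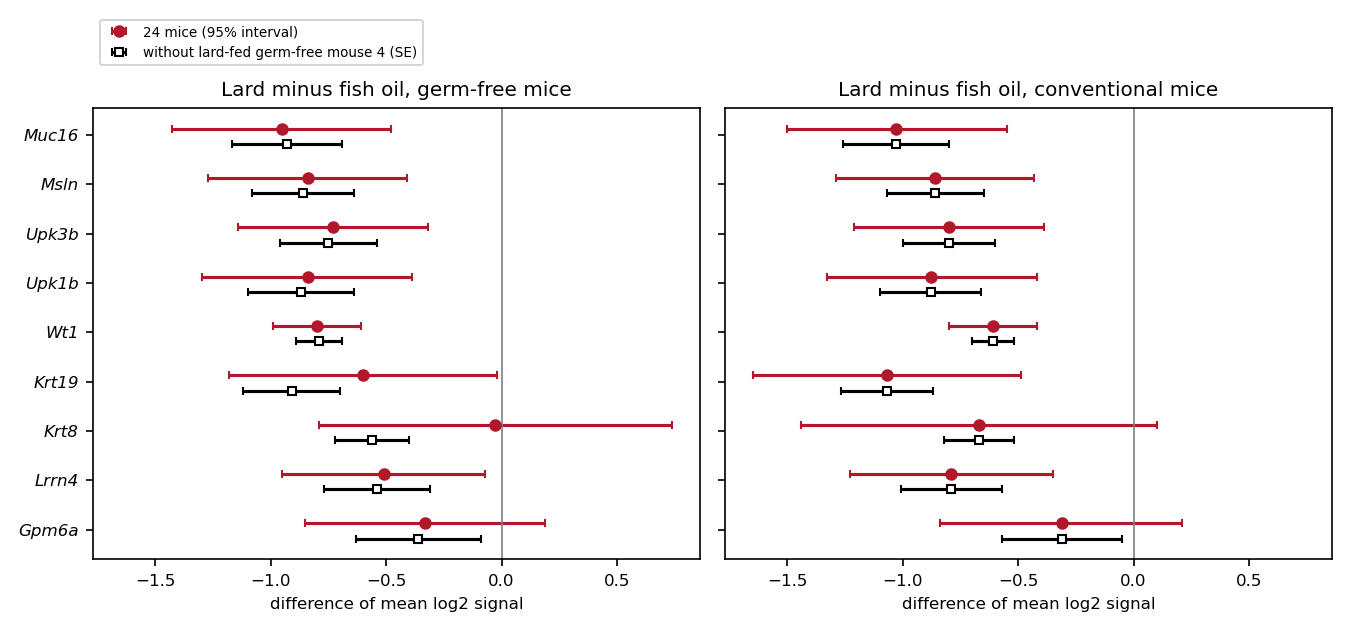
Difference in log2 signal between lard-fed and fish oil-fed mice for each mesothelial gene, in germ-free and in conventional mice, as the limma estimate with its 95% interval. All estimates lie below 0 (that of Krt8 in germ-free mice turned positive in several other fits, up to 0.36 with the liver covariate), Wt1 has the narrowest intervals and Krt8 the widest, from -0.79 to 0.74 in germ-free mice.

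Mouse 4 was high for both keratins and for gut genes together. Vil1, an actin bundler of gut microvilli, was 9.71 in mouse 4 and 5.77 to 6.47 in the other 5 lard-fed germ-free mice, and Cdh17, an intestinal cadherin, was 9.99 against 4.94 to 5.89. With lard the intestinal list averaged 6.22 to 9.49 in germ-free and 6.30 to 6.57 in conventional mice, and with fish oil 6.42 to 6.63 in germ-free and 6.44 to 6.56 in conventional mice. The other 7 members in mouse 4 lay within the range of the rest of its group. With the intestinal mean as a covariate, Krt19 fell by 0.92 ± 0.23 (limma adjusted p = 0.00247) and Krt8 by 0.62 ± 0.17 (adjusted p = 0.00482) in germ-free mice. That mean was 9.49 in mouse 4 and at most 6.99 in any other mouse. The covariate fit is therefore close to leaving mouse 4 out and is not separate from it.

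**Figure D3:**
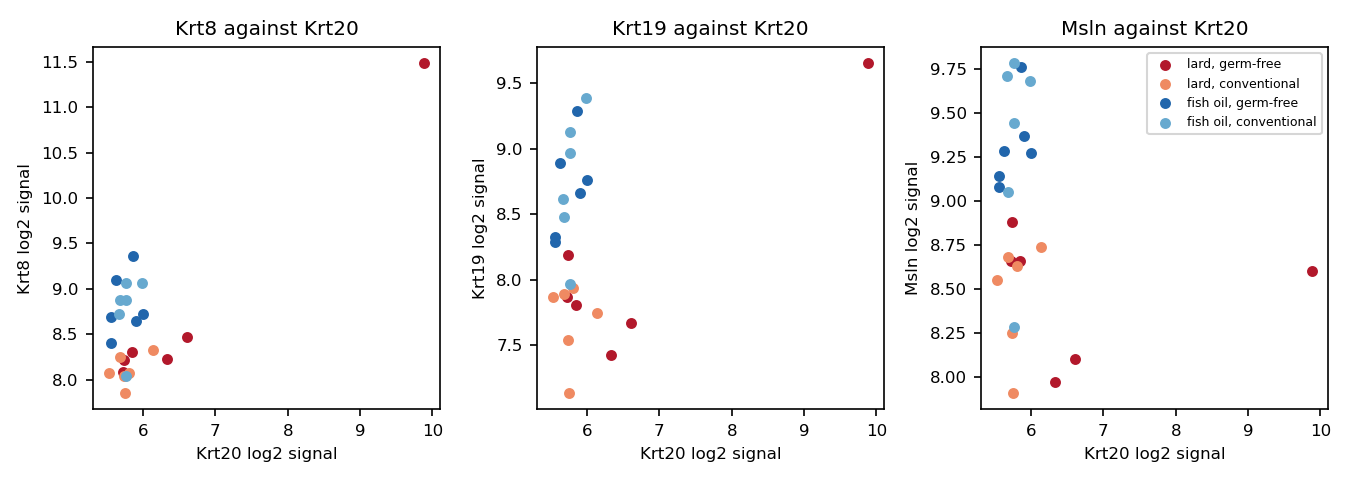
Log2 signal of Krt8, of Krt19 and of Msln in each mouse against that of Krt20, an intestinal keratin, with the 4 groups marked. Lard-fed germ-free mouse 4, with Krt20 at 9.89, lies alone at the right, and the other 23 mice form a cloud of low Krt20. Mouse 4 is also the highest for Krt8 and Krt19, while its Msln, 8.60, is within the range of its group.

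Between germ-free and conventional mice none of the 9 genes passed the threshold on either diet. With lard 0 of 9 changed between germ-free and conventional mice, where 16.3% of all genes did, and with fish oil 0 of 9, where 12.4% did. The share of all genes with lard was 12.9% without lard-fed germ-free mouse 4 and 0.888% without mice 2, 4 and 5 of that group, with fewer samples, and 0 of 9 passed in both. At an unadjusted limma p under 0.05 the counts were also 0 and 0. Msln differed by 0.02 log2 with lard (95% interval -0.41 to 0.45) and by 0.00 with fish oil (-0.43 to 0.43). Wt1 differed by -0.11 (-0.30 to 0.08) and 0.08 (-0.11 to 0.27). With lard Krt8 differed by 0.69 (-0.08 to 1.46) with mouse 4 and by 0.15 (-0.17 to 0.48) without it, and Krt19 by 0.41 (-0.16 to 0.99) with it and 0.10 (-0.33 to 0.54) without it. Without mouse 4 the highest upper limit of the 9 genes with lard was 0.78, for Gpm6a. Germ-free status and the colony or housing that goes with it cannot be told apart. The diet difference in germ-free mice minus that in conventional mice passed for 0 of 9 genes (7.20% of all genes). At an unadjusted limma p under 0.05 the count was 0 as well, and the share of all genes was again not counted. The share of all genes past the adjusted threshold was 4.64% without mouse 4 and 1.13% without mice 2, 4 and 5, with 0 of 9 in both. This difference was 0.65 (-0.44 to 1.73) for Krt8 with mouse 4 and 0.11 (-0.34 to 0.56) without it, and 0.47 (-0.34 to 1.28) for Krt19 with it and 0.16 (-0.44 to 0.76) without it. Wt1 gave the lowest value with mouse 4, -0.19 (-0.45 to 0.08), and without it, -0.18 (-0.45 to 0.10). For 8 of 9 genes both fish oil means were above both lard means, and neighbours in the order that shared a diet were not separated by this test.

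Within groups, mice that were high for 1 member were mostly high for the others. Lard-fed germ-free mouse 3 was the highest of its group for 7 members and mouse 2 the lowest for 7, and lard-fed conventional mouse 6 was the lowest for all 9. Fish oil-fed germ-free mouse 4 was the highest for 7 and mouse 3 the lowest for 8. Fish oil-fed conventional mouse 6 was the lowest for 8, all but Wt1, which was 0.01 above its group mean there while Msln was 1.05 and Gpm6a 1.20 below theirs. After taking each gene's deviation from its group mean, the 36 pairs of members correlated at 0.08 to 0.97 over 24 mice, with a median of 0.69. Without lard-fed germ-free mouse 4 the range was 0.42 to 0.97 and the median 0.85. Upk3b and Lrrn4, whose windows are printed above, correlated at 0.97. Krt19 and Krt8 correlated at 0.87 with mouse 4 and 0.77 without it. For Wt1 and Krt8 the value was 0.08 with mouse 4 and 0.42 without it. The mean of the other 8 members followed Lrrn4 (Pearson's r 0.92, Spearman's rho 0.87, r 0.89 without the 2 mice farthest out) more closely than Wt1 (0.57, 0.54, 0.59) or Krt8 (0.42, 0.64, 0.36). Without mouse 4 these values were 0.97, 0.93 and 0.96 for Lrrn4, 0.65, 0.66 and 0.73 for Wt1, and 0.68, 0.64 and 0.48 for Krt8. These are descriptions over 24 mice whose genes share an array and its normalisation.

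**Figure D4:**
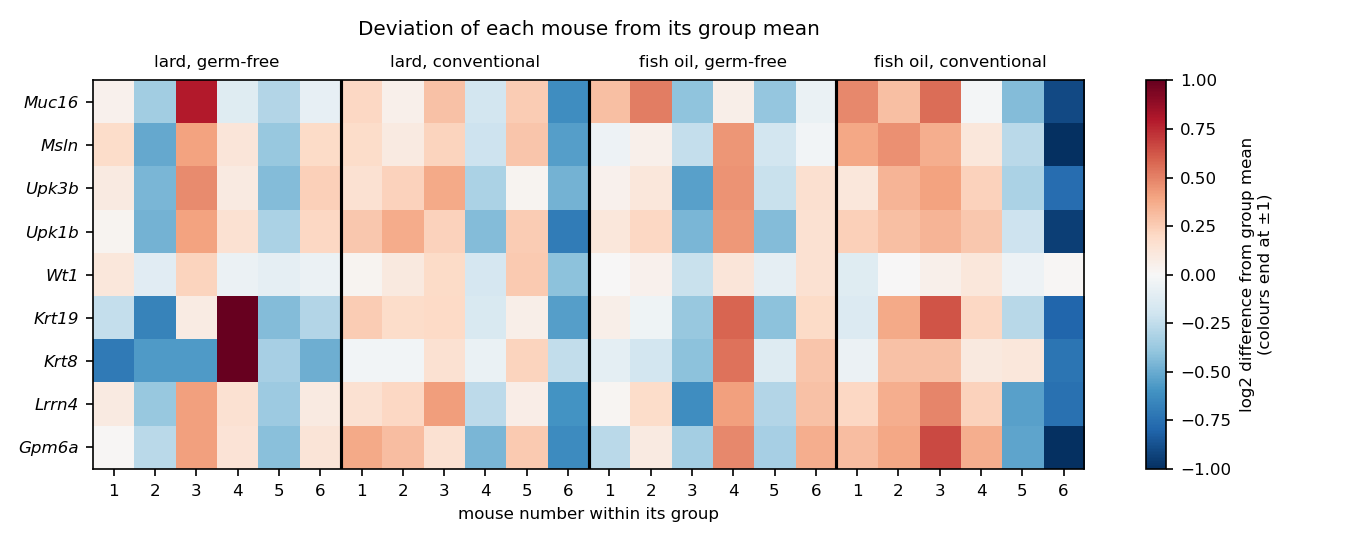
Deviation of each mesothelial gene from its group mean, in log2 units, in each of the 24 mice. Mice with high or low values keep them across most members, fish oil-fed conventional mouse 6 is low for 8 of 9 genes, and lard-fed germ-free mouse 4 is high for Krt8 and Krt19.

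Genes outside the list with the most similar deviations over the 24 mice were Ildr2 (r 0.90), Lrp2, an endocytic receptor of epithelia (0.89), Nkain4 (0.89), Bnc1, a zinc-finger protein (0.89), Krt7 (0.88), Ezr, a linker of membrane and actin (0.88), Spock2, a matrix proteoglycan (0.87), Fras1, a basement membrane protein (0.87), Myrf, a transcription factor (0.87), and Cobl, an actin nucleator (0.86). Spearman's rho for the 10 was 0.77 to 0.87, and r was 0.79 to 0.85 without the 2 mice farthest out, mouse 6 of the fish oil-fed and mouse 6 of the lard-fed conventional group. Without lard-fed germ-free mouse 4, Krt7, Ezr and Cobl left the top 10 (r 0.89, 0.86 and 0.86). Stk26, Rspo1 and Atp1b1 took their places (0.92, 0.91 and 0.90). Group means play no part in this measure. With lard, 7 of the 10 genes found with all 24 mice fell and 0 rose in germ-free mice, where 27.1% of all genes fell. In conventional mice 8 fell and 0 rose, where 15.6% of all genes fell, and the medians were -0.43 and -0.48. Nkain4, Bnc1, Krt7 and Ezr also belong to the wider list below, so its counts are not separate from these. Myrf fell by 0.65 (limma adjusted p = 2.5e-04) in germ-free and 0.55 (adjusted p = 0.00174) in conventional mice.

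A wider list of 16 mesothelial genes, also chosen with earlier results of these data known, held members that moved both ways. In germ-free mice 8 of 16 fell and 1 rose with lard, with a median of -0.37, where 27.1% of all genes fell and 20.4% rose. In conventional mice 6 fell and 1 rose, with a median of -0.16, where 15.6% of all genes fell and 15.4% rose. Nkain4, which binds a subunit of the sodium pump, was 8.61, 9.17 and 9.29 with lard and 9.79, 9.93 and 10.51 with fish oil in germ-free mice. In conventional mice Nkain4 was 8.47 to 9.59 with lard, with a mean of 9.25, and 9.17 to 10.45 with fish oil, with a mean of 9.92. The germ-free groups did not overlap and the conventional ones did. It fell by 0.98 in germ-free mice (limma adjusted p = 2.9e-04) and by 0.67 in conventional mice. Pkhd1l1, a large membrane protein, fell by 0.68 and 0.75, and the keratins Krt7 and Krt18 fell in both. Aldh1a2, the retinaldehyde dehydrogenase that makes retinoic acid, went the other way. In germ-free mice Aldh1a2 averaged 8.84 ± 0.26 with lard and 8.26 ± 0.19 with fish oil (SD, n = 6 each). In conventional mice Aldh1a2 averaged 9.00 ± 0.19 with lard and 8.19 ± 0.28 with fish oil. The diets did not overlap. It rose by 0.58 ± 0.13 (SE, limma adjusted p = 7.0e-04) and 0.81 ± 0.13 (adjusted p = 2.6e-05). Between germ-free and conventional mice, 1 of the 16 passed with lard (Anxa8, a membrane-binding annexin, -0.66, limma adjusted p = 0.00298). With fish oil 1 passed (Cldn15, a tight junction protein, 0.29, adjusted p = 0.0324). Of all genes, 16.3% passed with lard and 12.4% with fish oil. The count with lard was 0 once mice 2, 4 and 5 of the lard-fed germ-free group were left out, and without fish oil-fed conventional mouse 6 the count with fish oil was 0. With lard set against fish oil, 3 of the 16 fell and 1 rose in germ-free mice without mice 2, 4 and 5 on lard (12.0% of all genes fell). In conventional mice 2 fell and 1 rose without mice 5 and 6 on lard (10.1% of all genes fell).

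**Figure D5:**
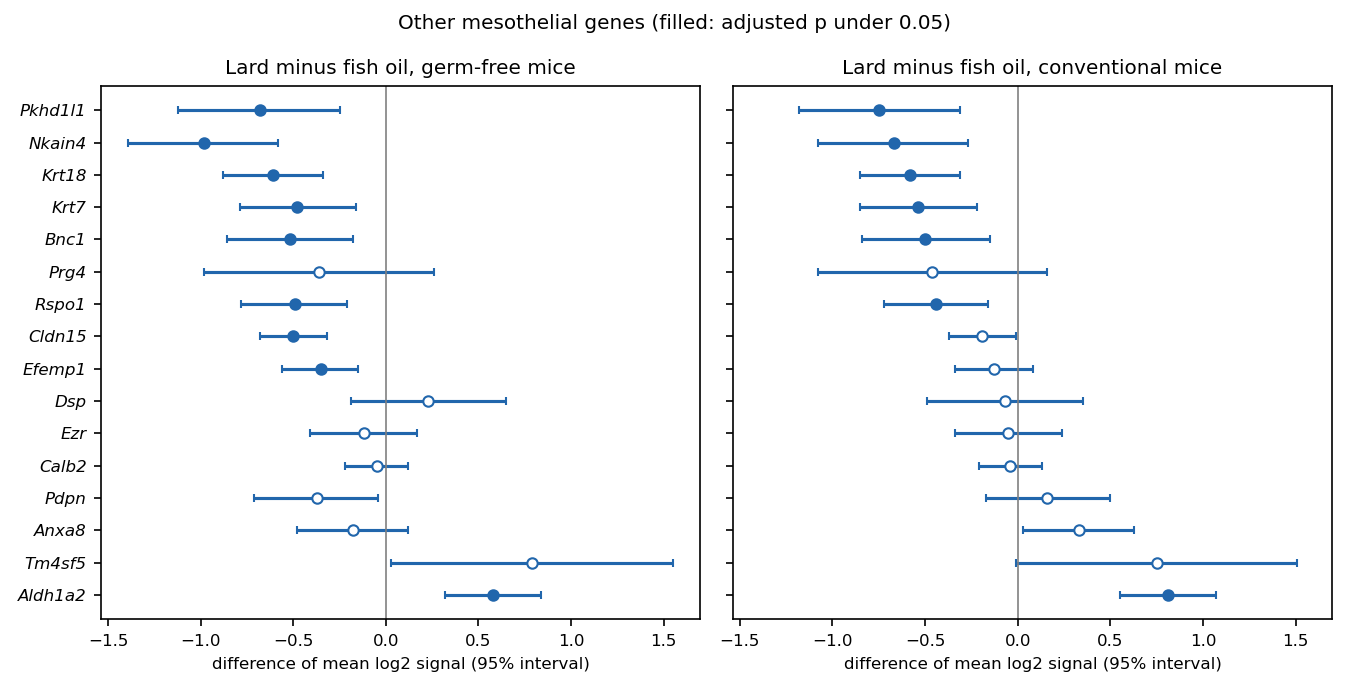
Difference in log2 signal between lard-fed and fish oil-fed mice for the 16 further mesothelial genes, in germ-free and in conventional mice, as the limma estimate with its 95% interval. Nkain4 and Pkhd1l1 lie well below 0 on both, while Aldh1a2 lies above 0 on both, at 0.58 and 0.81.

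Markers of other cell types also differed between the diets. Of all genes, 27.1% fell and 20.4% rose with lard in germ-free mice, and 15.6% fell and 15.4% rose in conventional mice. All 8 macrophage markers rose with lard in germ-free and in conventional mice (medians 1.19 and 1.13), and their mean in germ-free mice was 11.29 to 12.06 with lard and 10.38 to 10.96 with fish oil, and in conventional mice 10.80 to 11.92 with lard and 9.93 to 10.63 with fish oil. Of 8 adipocyte markers 5 fell and 1 rose in germ-free mice and 7 fell and 1 rose in conventional mice. Their mean in germ-free mice was 12.68 to 13.02 with lard and 12.96 to 13.14 with fish oil, and in conventional mice 12.59 to 12.97 with lard and 12.99 to 13.10 with fish oil. Within groups, the mean of the 9 mesothelial genes correlated at 0.94 over the 24 mice with that of the wider mesothelial list, at 0.35 with the adipocyte list, -0.16 with the macrophage list and -0.13 with the liver list. The part of these cell types in the diet difference was not tested.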

How the data were processed

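RNA of epididymal fat from 24 mice was measured on one-colour Affymetrix arrays. Log2 signals of 35556 probe sets were deposited, and per the submitters' processing notes they came from RMA. Scan dates, the array's genome build and the RMA version were not given in the sources used here, so no batch could be tested. All 24 columns were matched to samples by the labels. RMA equalises array distributions (medians 7.09 to 7.20) and compresses signals near background, which understates changes of dim genes.

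Probe sets were named through platform annotation: 21789 had 1 symbol, 1621 several and 12146 none. Of those with 1 symbol, 21698 were updated by Entrez ID in a RefSeq table (GRCm38.p6, names only). The probe set with the highest mean was kept per gene, which left 19938 genes. limma 3.58.1 under R 4.3.3 fitted the 4 group means to all arrays, and 5 contrasts were tested with Benjamini-Hochberg adjustment over all genes, two-sided, at 0.05. The method was tested on simulated data. Figures and tables used python 3.11.15, numpy 2.4.6, pandas 2.3.3 and matplotlib 3.10.9.

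The genes named are the 9 members, up to 4 examples of a 16-gene wider mesothelial list per comparison, and the 10 genes with the most similar deviations from group means. Genes that entered those 10 without lard-fed germ-free mouse 4 are named too, as are markers of other cell types beside the results they accompany. Members and lists were chosen with earlier results of these data known. A total of 14 alternatives were run, besides leaving out each mouse. Mouse numbers are replicate names.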

Additional observations from a re-analysis of the deposited data

Results flagged for a closer look

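In groups of 6, the mouse at either end was set against Dixon's 95% critical value for its gap to the nearest mouse, over 36 combinations of gene and group. Chance flags about 1 in 20 such groups, and 4 of 36 were flagged. Krt8 was 11.48 and Krt19 was 9.65 in lard-fed germ-free mouse 4, the mouse with high intestinal transcripts. Muc16 was 6.76 in lard-fed germ-free mouse 3, which was the highest of its group for 7 of the 9 genes. Krt8 was 8.04 in fish oil-fed conventional mouse 6, the lowest of its group for 8 of the 9.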

How the results depend on the processing

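Over 14 alternatives, 3 to 7 members fell with lard in germ-free mice and 6 to 8 in conventional mice. As first fitted, 27.1% and 15.6% of all genes fell there, and this share changed with the setting. In the other 3 comparisons 0 members changed, and no estimate past the threshold turned sign. The lowest count, 3, came without lard-fed germ-free mice 2, 4 and 5, where 12.0% of all genes fell. That fit had fewer samples and lacked the mice with the lowest member means of that group (2 and 5). Muc16 (-0.70, limma adjusted p = 0.0696), Msln (-0.58, 0.0818), Upk3b (-0.46, 0.146) and Upk1b (-0.63, 0.0847) then missed the threshold, with estimates nearer to no difference than with all mice. The 6 came from a filter on low values that left out Muc16. Lrrn4 in germ-free mice passed under 5 settings, among them quantile normalisation (adjusted p = 0.0422) and the filter (0.0451). With only the groups compared in the fit, Krt8 passed in conventional mice (adjusted p = 0.00404). Leaving out each mouse gave 5 to 7 in germ-free and 7 to 8 in conventional mice, and 0 to 0 in the other 3 comparisons. The 7 and the 8 came without lard-fed germ-free mouse 4, where 23.6% and 15.2% of all genes fell. Same-numbered mice of different groups did not deviate together on average (mean r -0.02, from -0.50 to 0.35 over 36 pairs). This mean cannot show whether any mice were paired. With the mouse number as a replicate block, the counts were 5 and 7, where 9253 and 6020 of the 19938 genes changed in either direction. For the other comparisons they were 0.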

Other observations

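In lard-fed germ-free mouse 4, 6 of the 16 genes of the wider mesothelial list also lay above the other 5 mice of the group. Tm4sf5, a tetraspanin-like membrane protein, was 10.83 in mouse 4 and 7.33 to 8.06 in the others, and Dsp, the desmosome protein desmoplakin, was 8.11 against 6.25 to 6.35. Krt7, which is also mesothelial, was 8.02 in mouse 4 and 7.57 to 7.99 in the others.

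Lard-fed conventional mice 5 and 6 had the highest macrophage means of their group, 11.79 and 11.92, against 10.80 to 11.16 in the other 4. Their means over the 9 mesothelial genes were 8.65 and 7.93, the group's range being 7.93 to 8.71. Transcripts of the epididymal epithelium, the neighbouring organ, were dim, with means of 5.12 to 5.98 over all mice. They were highest in fish oil-fed germ-free mouse 6, where Lcn5, a secreted lipocalin of the epididymis, was 8.92.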
